A study of Mus musculus with 8 samples.

Results

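The elastic fibre genes examined here are 10 mouse genes chosen by symbol, *Eln*, *Fbn1*, *Fbn2*, *Fbln1*, *Fbln2*, *Fbln5*, *Efemp1*, *Efemp2*, *Mfap2* and *Emilin1*, out of 54532 entries in a table of read counts per gene. All 10 were found in the table and all 10 passed the filter on low counts. The rule goes by name alone, but the list was drawn up with earlier results of these data known. RNAseq libraries were made from primary lung fibroblasts (pFBs), cells that grow out of minced lung and are passaged in medium with serum. There were 4 libraries from wild type female mice (WT1 to WT4) and 4 from female mice homozygous for a knocked-in human IGFBP5 transgene (HOMO1 to HOMO4), all on the background labelled C57/black and with no further treatment. The transgene (hIGFBP5) is driven by the promoter of elongation factor 1 a1 and is expressed throughout the animal, so it was not restricted to fibroblasts, and IGFBP5 itself is a secreted protein linked to fibrosis. The question was which genes differ in pFBs that carry it. Age and the number of mice behind the libraries are not given in the sources used here.

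Elastic fibres let the lung recoil after each breath. They consist of a core of cross-linked elastin on a scaffold of microfibrils, which are polymers of fibrillins with smaller associated proteins. Fibulins and EMILIN1 join elastin to this scaffold, and lysyl oxidases cross-link the elastin. Fibroblasts and smooth muscle cells make most of these proteins, much of them during lung growth.

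The libraries held between 17236521 and 31987790 counted reads each. They were not equally far apart. WT1 with WT2, HOMO1 with HOMO2 and HOMO3 with HOMO4 were near-identical, with a biological coefficient of variation (the spread between 2 libraries beyond counting error) of 4.71 to 7.65%. Elsewhere within a genotype it was 30.0 to 56.4%. WT1 and WT2 were closer to HOMO3 and HOMO4 (36.4 to 38.3%) than to WT3 and WT4 (45.7 to 56.4%). The study reported a weaker signature in HOMO3 and HOMO4 than in HOMO1 and HOMO2. It took this to reflect transgene levels that vary between mice, which was not tested here. It does not say which library came from which mouse. No record says that near-identical libraries came from separate animals, so the p-values measure the spread between libraries, which may be technical, and the calls are therefore also given with these pairs summed into 3 WT and 2 HOMO units. All 8 fibroblast markers were detected, with a summed level of 12515 to 22789.6 CPM (reads scaled to library size), while the 5 endothelial markers summed to 1.33 to 4.26 CPM, the 5 epithelial markers to at most 7.75 CPM, the 5 mesothelial markers to 51.8 to 155 CPM and the 5 chondrocyte markers to 2.48 to 23.6 CPM. The 5 leukocyte markers summed to 109 and 139.9 CPM in WT1 and WT2, to 1857 and 1091 CPM in WT3 and WT4, and to 23.0 to 152 CPM in the HOMO libraries. The 5 smooth muscle markers summed to 772 to 2713 CPM in WT, highest in WT3, and to 199 to 1453 CPM in HOMO, lowest in HOMO1 and HOMO2. Of the markers tested in these 7 lists, 4 were called, where 12.1% of all genes tested were. *Pdgfrb* and *Vim*, 2 of 8 fibroblast markers tested, were lower in HOMO (log2 fold changes of -0.97 and -0.65). *Wt1*, 1 of 5 mesothelial markers tested, and *Cdh1*, the 1 epithelial marker tested, were higher (3.36 and 2.77). The other mesothelial markers were not called and differed in direction, at -3.06 for *Krt19*, -0.52 for *Msln*, 0.09 for *Upk3b* and 0.22 for *Lrrn4*. The epithelial sum was at most 0.542 CPM in WT and at least 1.20 CPM in HOMO. *Sftpc*, a gene of alveolar epithelium, had 48 reads in HOMO2 and 99 in HOMO3. It had only 1 read in HOMO1, 3 in HOMO4 and at most 1 in any WT library. *Epcam* had 45 reads in HOMO4 and at most 1 in any other library. The part of these marker differences in the results on elastic fibre genes was not tested. Mouse *Igfbp5* stood at 409 CPM in WT3 and at 1.07 to 9.65 CPM in the other 7 libraries, and the human transgene was not analysed here.

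In HOMO pFBs, the fibrillin *Fbn2* was upregulated and *Fbn1*, *Efemp1*, *Efemp2* and *Emilin1* were downregulated. A gene was called when its adjusted p was under 0.05 and its absolute log2 fold change, HOMO against WT, was above 0.6, the thresholds used in the study. By this rule 5 of the 10 members were called, where 12.1% of all 14150 genes tested were. In the upward direction 1 of 10 was called (5.94% of all genes), and in the downward direction 4 of 10 (6.18%). Of the 10 fold changes, 9 were below 0, as were 7457 of all 14150 genes tested. The median of the 10 was -0.87 on the log2 scale, beside -0.04 over all genes. The 9 include *Mfap2* at -0.06, and *Eln*, *Fbln1*, *Fbln5* and *Mfap2* changed sign under some choice of libraries or fit. In 6 members, those called and *Fbln2*, every library of one genotype was above every library of the other, as in 27.3% of all genes. These were 5 members lower in HOMO (13.4% of all genes) and 1 higher (14.0%). With near-identical libraries summed, edgeR called 0 of 10 members and 0 of 16130 genes, and 5 of the 10 members, the same 5, had an unadjusted p under 0.05, as did 12.8% of all genes; DESeq2 on these sums called *Fbn2* and *Efemp1* (4.69% of all genes). The same 2 members were called with the replicate number as a block (6.69%), though these numbers do not pair libraries. With limma-voom and sample weights 8 were called (25.3%). Leaving out HOMO1, or leaving out HOMO2, *Fbn2* alone was called, where 3.52 and 3.56% of all genes were.

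**Figure D1:**
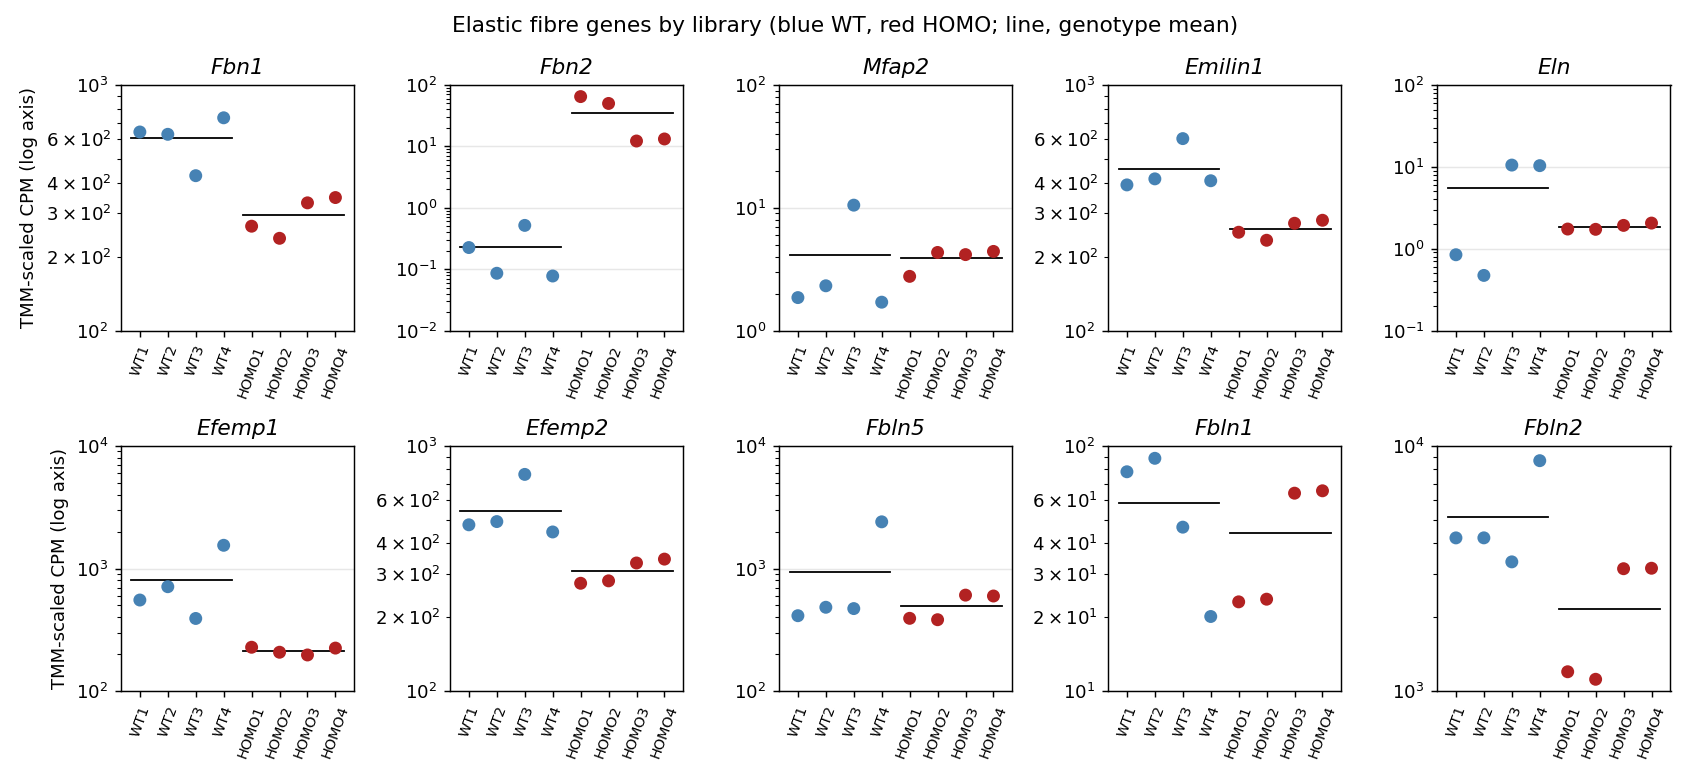
Level of each of the 10 elastic fibre genes in every library, in TMM-scaled CPM on a log axis. Each point is a library, blue for WT and red for HOMO, and each line is the mean of 4 libraries. *Fbn2* ran from 12.2 to 64.6 CPM in HOMO and did not exceed 0.516 CPM in WT, while *Eln* was split within WT, with WT3 and WT4 above 10 CPM and WT1 and WT2 below 1 CPM.

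The fibrillins form the backbone of the microfibril. *Fbn1* encodes fibrillin-1, the main fibrillin of adult tissue, and lies at chr2:125300594-125507993 on the minus strand (GRCm38). Its level was 643, 629, 427 and 735 CPM in WT1 to WT4 and 266, 238, 331 and 348 CPM in HOMO1 to HOMO4. Every WT library stood above every HOMO library, with WT3 nearest to the HOMO range. The mean fell from 609 ± 129.8 CPM (SD, n = 4) to 296 ± 52.5 CPM (SD, n = 4), a log2 fold change of -1.04 (SE 0.21, adjusted p = 0.0165). The adjusted p was 0.0677 without HOMO1, 0.0655 without HOMO2, 0.055 with the replicate number as a block and 0.372 with near-identical libraries summed, with log2 fold changes of -0.99, -0.95, -1.03 and -1.02. An antisense gene, *Gm9913*, shares 20.1% of the exon bases of *Fbn1* and had at most 21 counts in a library, where *Fbn1* had at least 5968.

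*Fbn2* encodes fibrillin-2, which is known as the fibrillin of developing tissue, and lies at chr18:58008623-58210487 on the minus strand. Its reads numbered 4, 2, 9 and 2 in WT1 to WT4 and 1449, 1651, 241 and 263 in HOMO1 to HOMO4. The WT libraries were near the limit of counting and all 4 HOMO libraries were well above them. In CPM these were 0.225, 0.0858, 0.516 and 0.0774 in WT and 64.6, 49.95, 12.2 and 13.2 in HOMO. HOMO1 and HOMO2 were the highest, with a mean of 57.3 CPM that was 4.51 times the 12.7 CPM of HOMO3 and HOMO4, a difference between 2 units that allows no test. The fitted log2 fold change was 7.34 (SE 0.87, adjusted p = 0.00289). Because WT held 17 reads in all, the ratio of pooled CPM, 188-fold, had a 95% interval of 117 to 323 from counting error alone (exact conditional binomial). *Fbn2* was called in each fit that left out 1 library, with log2 fold changes of 6.85 to 8.11. None of these fits left out a whole HOMO unit, since the near-identical library stayed in. *Fbn2* was also called with the replicate block (7.12, adjusted p = 0.0179). With near-identical libraries summed its log2 fold change was 7.25 and its unadjusted p 0.000285 in edgeR, where the adjusted p was 0.142, and its adjusted p was 5.78e-13 in DESeq2. The antisense gene *Gm26507*, which shares 0.976% of its exon bases, had 0 counts in all WT libraries and 23, 36, 7 and 5 in HOMO1 to HOMO4, and it is not known here whether counting used strand.

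Levels of different genes were compared per kilobase of exon. Of the fibrillin signal per kilobase, *Fbn2* made up 0.0321, 0.0125, 0.111 and 0.00967% in WT1 to WT4 and 18.2, 16.2, 3.27 and 3.36% in HOMO1 to HOMO4. *Fbn1* thus stayed the larger of both fibrillins in every library. The share in HOMO followed the split between HOMO1 with HOMO2 and HOMO3 with HOMO4.

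**Figure D2:**
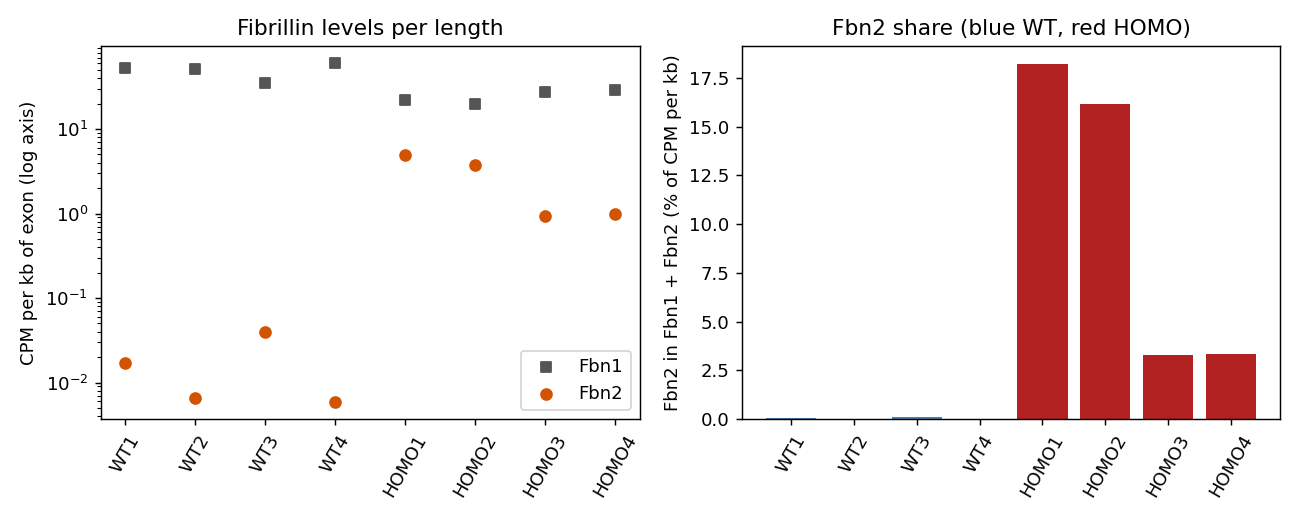
Left, *Fbn1* (squares) and *Fbn2* (circles) in CPM per kilobase of exon in each library, on a log axis. Right, *Fbn2* as a percentage of both fibrillins, with WT in blue and HOMO in red. The HOMO bars stand at 18.2, 16.2, 3.27 and 3.36%, and the WT bars at or below 0.111% are hardly visible.

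*Emilin1* and *Mfap2* encode proteins that sit on microfibrils. EMILIN1 is found where elastin meets the microfibril. *Emilin1* (chr5:30913402-30921277, plus strand) measured 392, 415, 605 and 407 CPM in WT1 to WT4 and 251, 233, 273 and 281 CPM in HOMO1 to HOMO4. WT3 was high among the WT libraries and the genotypes did not overlap. On the log2 scale its fold change was -0.81 (SE 0.17, adjusted p = 0.0214). The adjusted p was 0.0794, 0.0838 and 0.0514 without HOMO1, HOMO2 or HOMO3, 0.055 with the block and 0.376 on summed libraries, all with a negative fold change.

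MFAP2, also called MAGP1, is a small glycoprotein that binds fibrillin. *Mfap2* (chr4:141010418-141015984, plus strand) was low, at 1.86, 2.32, 10.5 and 1.70 CPM in WT1 to WT4 and 2.76, 4.33, 4.16 and 4.41 CPM in HOMO1 to HOMO4. One WT library, WT3, was above all HOMO libraries and the other 3 were below them. Its log2 fold change was -0.06 (SE 0.60, adjusted p = 0.959), and 1.00 without WT3 (adjusted p = 0.0375), with an adjusted p of 0.928 on summed libraries. The fit without WT3 is quoted because WT3 stood apart, which narrows the spread left in WT, so its adjusted p is no test. WT3 was also the library with the highest smooth muscle and leukocyte marker sums, 2713 and 1857 CPM, whose part in the *Mfap2* values was not tested.

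Elastin itself, the elastic core, was weakly expressed in these cultures. *Eln* (chr5:134702593-134747323, minus strand) had 15, 11, 183 and 267 reads in WT1 to WT4 and 39, 57, 38 and 41 reads in HOMO1 to HOMO4. Its levels were 0.844, 0.472, 10.5 and 10.3 CPM in WT and 1.74, 1.72, 1.93 and 2.06 CPM in HOMO. The HOMO libraries were alike, within 1.19-fold from lowest to highest, and lay between WT1 with WT2 and WT3 with WT4, which differed 15.8-fold on average. The log2 fold change over all 8 libraries was -1.57 (SE 0.89, adjusted p = 0.256), with an adjusted p of 0.487 on summed libraries. It was 1.51 against WT1 and WT2 alone and -2.48 against WT3 and WT4 alone, so the direction depended on which WT libraries were used. These last values are given without a test, since WT1 and WT2 are near-identical and make up 1 unit, and since this division of WT follows the *Eln* levels themselves. WT3 and WT4 were also the libraries with the highest leukocyte marker sums, 1857 and 1091 CPM against 109 and 139.9 CPM in WT1 and WT2, and WT3 and WT4 had smooth muscle sums of 2713 and 866 CPM against 831 and 772 CPM. *Acta2* made up most of each smooth muscle sum, at 799, 743, 2418 and 804 CPM in WT1 to WT4. In the same order *Myh11* measured 2.42, 1.93, 53.9 and 24.8 CPM and *Des* 0.844, 0.558, 28.2 and 5.15 CPM. *Cnn1* measured 25.4, 22.7, 204 and 26.9 CPM and *Tagln* 3.32, 3.43, 7.86 and 5.57 CPM. The part of these markers in the *Eln* values was not tested. In such bulk samples, fewer cells of a type and less RNA per cell cannot be told apart.

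The 3 genes whose log2 levels over the 8 libraries, centred on their mean, were nearest to those of *Eln* were *Pcdhga4*, *Gpnmb* and *Neurl3*, with root mean square differences of 0.40, 0.41 and 0.42. All 3 were split within WT in the same way, which follows from their choice by likeness to *Eln*. *Gpnmb*, for example, measured 63.5 and 71.7 CPM in WT1 and WT2, 669 and 671 CPM in WT3 and WT4, and 113 to 239.9 CPM in HOMO.

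The short fibulins are the group of fibulins tied most closely to elastin assembly. *Efemp1* encodes fibulin-3, *Efemp2* fibulin-4, which tethers lysyl oxidase to tropoelastin, and *Fbln5* fibulin-5, which binds elastin and integrins. Of these related genes *Efemp1* and *Efemp2* were called and *Fbln5* was not, and the sequence ahead of the start of each is shown for comparison. The windows are the 250 bases before the start given by RefSeq on GRCm38.p6, at chr11:28852955-28853204 (plus strand), chr19:5473696-5473945 (plus strand) and chr12:101819120-101819369 (minus strand), written from 5′ to 3′ in the direction of the gene. *Efemp1* had 1 RefSeq start, *Efemp2* 3 and *Fbln5* 2, and the start nearest to the gene start in GENCODE M21 was used. Bases just after the start used were found in a GENCODE transcript for *Efemp1* and *Efemp2*, but not for *Fbln5*. The *Fbln5* window is thus less certain. Capitals mark the matches found.
Efemp1: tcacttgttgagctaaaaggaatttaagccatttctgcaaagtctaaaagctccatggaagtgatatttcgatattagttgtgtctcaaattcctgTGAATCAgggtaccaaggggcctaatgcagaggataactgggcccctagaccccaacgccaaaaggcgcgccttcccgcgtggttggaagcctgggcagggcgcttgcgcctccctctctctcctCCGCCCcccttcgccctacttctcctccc
Efemp2: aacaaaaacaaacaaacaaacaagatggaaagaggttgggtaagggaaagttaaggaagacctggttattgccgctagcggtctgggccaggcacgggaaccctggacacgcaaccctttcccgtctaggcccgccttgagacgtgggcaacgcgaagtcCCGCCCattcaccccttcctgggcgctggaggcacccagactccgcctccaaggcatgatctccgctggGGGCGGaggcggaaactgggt
Fbln5: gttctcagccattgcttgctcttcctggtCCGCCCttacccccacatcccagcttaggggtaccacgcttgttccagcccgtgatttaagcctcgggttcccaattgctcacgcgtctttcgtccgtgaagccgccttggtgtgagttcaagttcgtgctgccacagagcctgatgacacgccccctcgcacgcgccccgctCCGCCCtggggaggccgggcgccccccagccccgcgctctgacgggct
These windows were searched on both strands for 6 motifs, the GC box (GGGCGG), the AP-1 site (TGANTCA), the TATA box (TATAAA), a SMAD element (CAGACA), the EGR1 site (GCGNGGGCG, which can overlap a GC box) and a TEAD element (GGAATG). The *Efemp1* window held 1 GC box and 1 AP-1 match, counted once because the motif TGANTCA is its own reverse complement. The *Efemp2* and *Fbln5* windows held 2 GC boxes each, and no other motif searched was matched in the 3 windows. Of 32536 mouse windows of the same length, 33.0% held a GC box and 6.73% an AP-1 match, while the TATA, SMAD, EGR1 and TEAD letters were in 12.3, 17.0, 4.74 and 12.6%. A match describes letters and says nothing of binding.

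*Efemp1* measured 554, 711, 392 and 1545 CPM in WT1 to WT4 and 229, 208, 198 and 225 CPM in HOMO1 to HOMO4. The HOMO libraries lay within 1.16-fold of each other, below every WT library, while the WT libraries spanned 3.94-fold with WT4 highest. The mean fell from 801 ± 513 CPM (SD, n = 4) to 215 ± 14.5 CPM (SD, n = 4), with a log2 fold change of -1.90 (SE 0.39, adjusted p = 0.0188). It was called with the block (-1.70, adjusted p = 0.0444), whose numbers do not pair libraries. On summed libraries it was called in DESeq2 (adjusted p = 0.0398), but not in edgeR (adjusted p = 0.338). Without HOMO1, HOMO2, HOMO3 or HOMO4 in turn its adjusted p was 0.0664, 0.0705, 0.0527 and 0.0519, with fold changes of -1.86 to -1.92.

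*Efemp2* (chr19:5473954-5482517, plus strand) measured 476, 491, 764 and 445 CPM in WT1 to WT4 and 275, 282, 333 and 345 CPM in HOMO1 to HOMO4. WT3 was the highest WT library and WT4, the lowest, was still above HOMO4. This gave a log2 fold change of -0.82 (SE 0.20, adjusted p = 0.0329). The adjusted p passed 0.05 without WT2 (0.0544), HOMO1 (0.112), HOMO2 (0.112), HOMO3 (0.0683) or HOMO4 (0.0629), with the block (0.0667) and on summed libraries (0.386), each time with a negative fold change. *Mus81* on the opposite strand shares 4.57% of its exon bases and had 393 to 648 counts per library, against at least 6177 for *Efemp2*.

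*Fbln5* (chr12:101746565-101819055, minus strand) measured 413, 484, 472 and 2399 CPM in WT1 to WT4 and 393, 383, 607 and 597 CPM in HOMO1 to HOMO4. WT4 alone was far above the rest, 5.26 times the mean of the other WT libraries, and without it the genotypes overlapped closely. The log2 fold change was -0.93 (SE 0.58, adjusted p = 0.302), and 0.12 without WT4 (adjusted p = 0.72). Genes of chromosome 12 as a whole were higher in WT4 than in the other WT libraries, by a median of 0.65 on the log2 scale. With such shifts within a genotype entered as an offset, the log2 fold change of *Fbln5* was -0.70. The offset leaves the difference between genotypes, where the chromosome 12 median was 0.24, HOMO against WT. The WT4 median was 0.36 on chromosome 4 of *Mfap2* and -0.22 on chromosome 19 of *Efemp2*. With the offset, the log2 fold changes of these genes were -0.08 and -0.81.

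The long fibulins, fibulin-1 and fibulin-2, bind fibronectin, basement membrane proteins and elastic fibres. *Fbln2* (chr6:91212455-91272540, plus strand) was the most abundant member, with 4214, 4215, 3366 and 8689.6 CPM in WT1 to WT4 and 1202, 1119.7, 3157 and 3170.3 CPM in HOMO1 to HOMO4. The genotypes did not overlap, but HOMO3 and HOMO4 came close to WT3, and HOMO1 and HOMO2 were lower by a factor of 2.73. The log2 fold change of -1.24 (SE 0.46) had an adjusted p of 0.103 in edgeR and of 0.0344 in DESeq2 on the same 8 libraries, where 6 members were called (16.5% of all genes). With near-identical libraries summed the adjusted p was 0.44 in edgeR and 0.26 in DESeq2.

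*Fbln1* (chr15:85205949-85286535, plus strand) measured 78.3, 88.8, 46.6 and 20.2 CPM in WT1 to WT4 and 23.1, 23.7, 64.1 and 65.5 CPM in HOMO1 to HOMO4. Both genotypes held high and low libraries, with WT4, HOMO1 and HOMO2 lowest. Its fold change was -0.41 on the log2 scale (SE 0.52, adjusted p = 0.621). *Fbln1* and *Fbln2* were each lower in HOMO1 and HOMO2 than in HOMO3 and HOMO4, by 2.77-fold and 2.73-fold, whereas *Efemp1*, *Efemp2*, *Emilin1*, *Eln* and *Mfap2* differed by at most 1.22-fold between these 2 units.

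**Figure D3:**
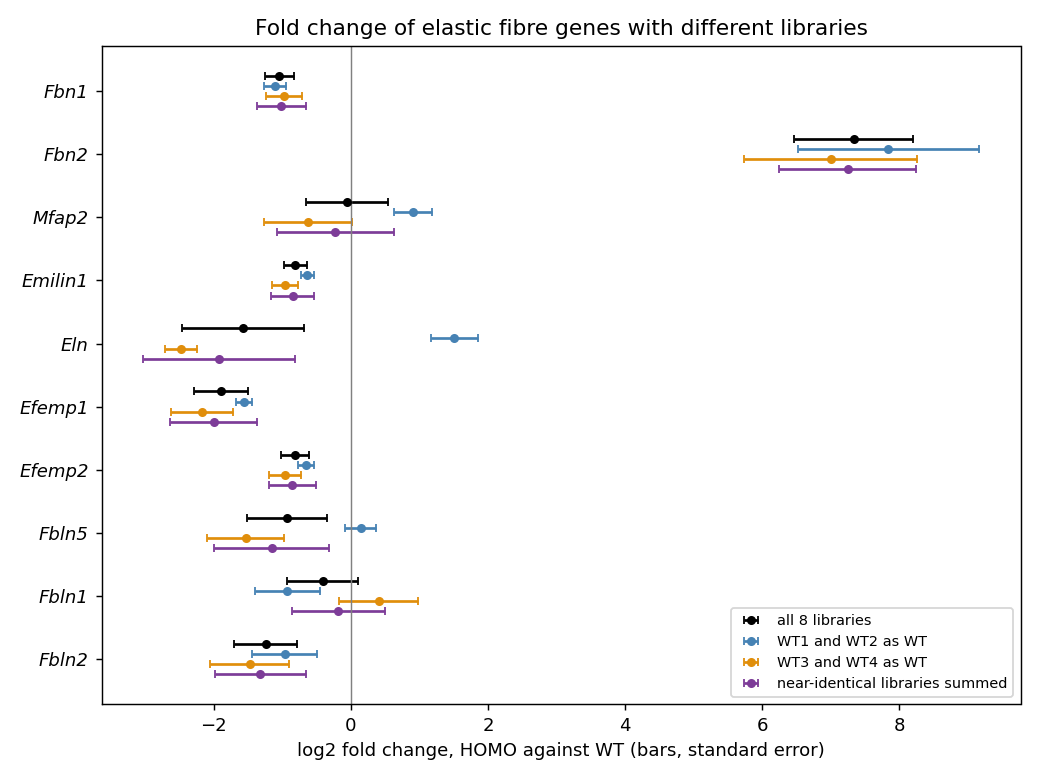
Log2 fold change of each member, HOMO against WT, with standard errors as bars. Black uses all 8 libraries, blue takes WT1 and WT2 as WT, orange takes WT3 and WT4 as WT, and purple sums near-identical libraries. *Fbn1*, *Efemp1*, *Efemp2*, *Emilin1* and *Fbln2* are left of 0 and *Fbn2* is right of 0 in each of these 4 fits, while *Eln* runs from -2.48 to 1.51.

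The choice of WT libraries thus divided the members. *Fbn1*, *Fbn2*, *Efemp1*, *Efemp2* and *Emilin1* were called in the same direction when either WT1 and WT2 or WT3 and WT4 were left out, 2 settings added after the data were seen. Without WT3 and WT4, 7 members were called (20.9% of all genes), the added ones being *Eln* and *Mfap2*, both higher in HOMO. In that fit WT is a near-identical pair, so its calls rest on the small spread within 1 unit. Without WT1 and WT2, 6 members were called (22.0% of all genes), the added one being *Eln*, lower in HOMO. This division of WT follows the *Eln* levels, so each WT pair held like *Eln* levels by choice. The calls of *Eln* in both fits are therefore no test. In the fit without WT3 and WT4 the log2 fold changes were -1.11 for *Fbn1*, 7.84 for *Fbn2*, -1.56 for *Efemp1*, -0.65 for *Efemp2* and -0.64 for *Emilin1*. Leukocyte marker sums in the libraries left were 109 and 139.9 CPM in WT1 and WT2. They were 24.1 and 23.0 CPM in HOMO1 and HOMO2, but 131 and 152 CPM in HOMO3 and HOMO4. The part of these sums in the fold changes was not tested.

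Across the libraries of both genotypes that were least apart, WT1 with WT2 and HOMO3 with HOMO4, the same genes were compared as plain ratios of mean CPM, with no test. *Efemp1* was 2.99 times, *Fbn1* 1.87 times, *Emilin1* 1.45 times, *Efemp2* 1.43 times and *Fbln2* 1.33 times higher in WT1 and WT2. *Fbn2* was 81.7 times, *Eln* 3.03 times, *Mfap2* 2.05 times and *Fbln5* 1.34 times higher in HOMO3 and HOMO4. *Fbln1* was 1.29 times higher in WT1 and WT2.

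Per kilobase of exon, the order of the mean levels in WT was *Fbln2*, *Efemp1*, *Efemp2*, *Fbln5*, *Emilin1*, *Fbn1*, *Fbln1*, *Mfap2*, *Eln* and *Fbn2*, from 804 down to 0.0171 CPM per kilobase. In HOMO the order was the same from *Fbln2* (339 CPM per kilobase) to *Mfap2* (3.23), followed by *Fbn2* (2.65) and *Eln* (0.23). The exchange of *Eln* and *Fbn2* at the bottom was a change of ranks outside the spread of libraries, since their ranges did not overlap in either genotype. In WT, the neighbours from *Fbln2* to *Emilin1* overlapped pairwise, as did *Fbln1* and *Mfap2*. In HOMO, the neighbours that overlapped were *Efemp2* with *Fbln5*, *Fbln5* with *Emilin1*, and *Mfap2* with *Fbn2*. The spread over libraries, on the log2 scale, was wider in WT than in HOMO for 8 of 10 members, near the 83.2% of all genes for which this held.

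Further genes of elastic fibres were taken from 4 lists of 40 partner genes, of which 34 were tested and 7 called, 1 upward and 6 downward, where 12.1% of all genes were called, 5.94% upward and 6.18% downward. Among 17 relatives of the microfibril and of its assembly, 13 were tested, 1 was upregulated and 4 were downregulated, with a median log2 fold change of -0.34. *Ltbp4* encodes a latent TGF-β binding protein that works with fibulins in elastin assembly, and measured 19.2, 22.6, 67.0 and 48.5 CPM in WT1 to WT4 and 305, 306, 178 and 177 CPM in HOMO1 to HOMO4. As for *Fbn2*, HOMO1 and HOMO2 were the highest and the genotypes did not overlap. The log2 fold change was 2.62 (SE 0.44, adjusted p = 0.00904), and the adjusted p was 0.235 on summed libraries in edgeR and 0.00208 in DESeq2.

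The 4 relatives that were downregulated include *Mfap5*, which encodes a microfibril protein, MAGP2, related to that of *Mfap2*. It measured 91.3, 96.1, 154 and 193 CPM in WT1 to WT4 and 11.3, 11.9, 43.1 and 41.7 CPM in HOMO1 to HOMO4, without overlap. Its log2 fold change was -2.31 (SE 0.52, adjusted p = 0.0245), with an adjusted p of 0.0665 without HOMO1, 0.0705 without HOMO2 and 0.291 on summed libraries. *Hmcn1*, which encodes the very large fibulin relative hemicentin-1, fell by 2.45 on the log2 scale (SE 0.57, adjusted p = 0.0286) from low levels of 3.26 to 15.6 CPM in WT to 0.76 to 2.03 CPM in HOMO. *Adamtsl4*, whose protein binds fibrillin-1, fell by 1.11 (SE 0.22, adjusted p = 0.0159). *Ltbp2*, whose protein binds fibrillin-1 and fibulin-5, fell by 0.88 (SE 0.24, adjusted p = 0.0469), the called gene of this list nearest to the threshold and not called in 14 of 20 alternatives. Leaving out HOMO1 or HOMO2 gave adjusted p-values of 0.0849 and 0.0653 for *Hmcn1*, 0.0613 and 0.0633 for *Adamtsl4*, and 0.145 and 0.142 for *Ltbp2*. *Hmcn1* was also not called without HOMO3 (0.0714) or HOMO4 (0.075). *Ltbp2* was also not called without WT1 (0.0889), WT2 (0.0992), WT4 (0.0579), HOMO3 (0.0699) or HOMO4 (0.0757), with upper-quartile scaling (0.0528), with no filter (0.0641), with the chromosome offset (0.0775) or, at a log2 fold change of -0.56, without WT1 and WT2 (0.155). With the block, *Hmcn1* (0.0764) and *Ltbp2* (0.14) were not called. On summed libraries edgeR gave adjusted p-values of 0.338 for *Hmcn1*, 0.305 for *Adamtsl4* and 0.428 for *Ltbp2*.

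Among 6 genes of cross-linking, all tested, *Loxl3* and *Loxl4* were downregulated and the others were not called. Lysyl oxidases oxidise lysines of elastin and collagen so that these can be joined, and ATP7A loads them with copper. *Loxl3* measured 186, 171, 110.2 and 133 CPM in WT1 to WT4 and 51.0, 47.7, 82.8 and 72.7 CPM in HOMO1 to HOMO4, a log2 fold change of -1.24 (SE 0.24, adjusted p = 0.0146). *Loxl4* measured 42.7, 34.1, 22.6 and 19.7 CPM in WT and 11.2, 10.5, 13.3 and 13.2 CPM in HOMO, a log2 fold change of -1.31 (SE 0.26, adjusted p = 0.0165). Neither gene's genotypes overlapped. Their adjusted p-values were 0.0587 and 0.0653 without HOMO1, 0.0562 and 0.0668 without HOMO2, 0.0658 and 0.0657 with the block, and 0.328 and 0.361 on summed libraries. Of the called partners, *Ltbp2*, *Hmcn1* and *Loxl3* share exon bases with a gene of the opposite strand, up to 11.6% in *Loxl3*.

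The main lysyl oxidases of elastin showed 1 high WT library each. *Lox* measured 1596, 1682, 1292 and 6656 CPM in WT1 to WT4 and 4076, 4018, 3213 and 3204 CPM in HOMO1 to HOMO4. WT4 was above all HOMO libraries and the other 3 WT libraries were below them. For *Lox* the log2 fold change was 0.37 (SE 0.51, adjusted p = 0.654), and 1.25 without WT4 (SE 0.19, adjusted p = 0.00912), with an adjusted p of 0.932 on summed libraries. *Loxl1*, which is directed to elastin by fibulin-5, measured 153, 152, 1407 and 258 CPM in WT1 to WT4 and 327, 334, 337 and 345 CPM in HOMO1 to HOMO4. Here WT3 was the library above all others, and the log2 fold change of -0.55 (SE 0.69, adjusted p = 0.615) became 0.84 without WT3 (SE 0.20, adjusted p = 0.0283), with an adjusted p of 0.726 on summed libraries. For *Lox* and *Loxl1*, the fit without 1 library is quoted because that library stood apart, which narrows the spread left in WT. Its adjusted p is therefore no test. *Loxl2* (-0.32, SE 0.40, adjusted p = 0.617) and *Atp7a* (0.78, SE 0.46, adjusted p = 0.268) were not called.

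**Figure D4:**
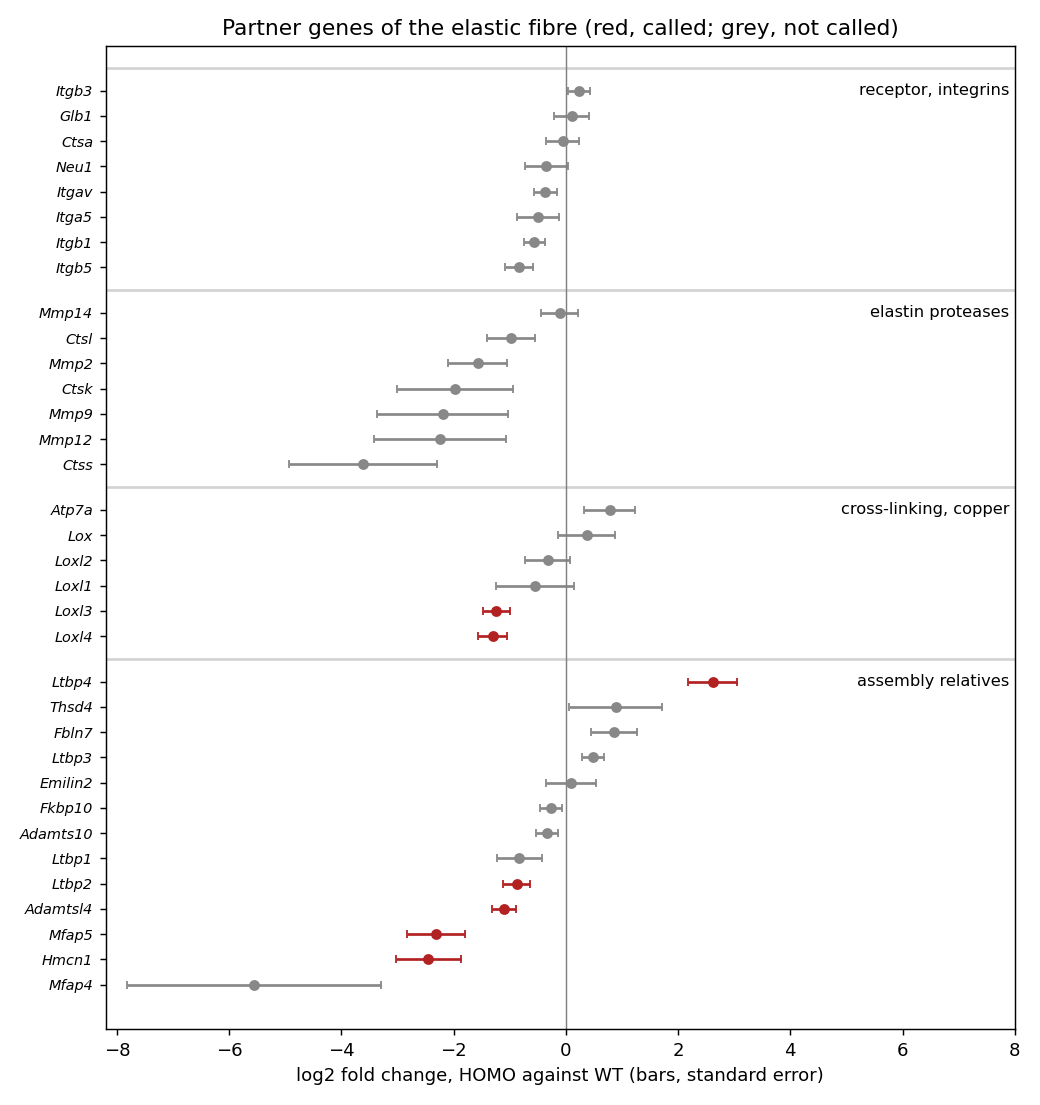
Log2 fold change, HOMO against WT, of the 34 partner genes tested, with standard errors as bars, grouped by list. The 7 called genes are red and the others grey. *Ltbp4* at 2.62 is the one called gene to the right of 0, and each of the 7 elastin proteases is left of 0 and grey.

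Of 9 proteases that cut elastin, 7 were tested and 0 were called in edgeR, with 3 at an unadjusted p under 0.05, where 32.3% of all genes were, and a median log2 fold change of -1.97. The study, with DESeq2, reported *Mmp2* of this list as downregulated. Here its log2 fold change was -1.57 (SE 0.53, adjusted p = 0.082 in edgeR). Of 8 genes of the elastin receptor complex and of integrins that bind elastic fibre proteins, all 8 were tested and 0 were called in edgeR, with 2 at an unadjusted p under 0.05 and a median of -0.36.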

How the data were processed

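Counts per gene were deposited by the authors, who used fastp for trimming, STAR for alignment to mm10 and featureCounts for counting, on poly-A libraries made with the NEBNext Ultra kit. Versions, and whether counting used strand, are not given in the sources used here. The genes and lists were chosen with earlier results of these data known. Counts of all 54532 entries (53877 matched to GENCODE M21, GRCm38, for positions and exon length) were filtered with filterByExpr, scaled by TMM and fitted with edgeR's quasi-likelihood F test on genotype (edgeR 4.0.16, R 4.3.3), with Benjamini-Hochberg adjustment over 14150 genes. The study used DESeq2, here an alternative (DESeq2 1.42.0). Calls needed a log2 fold change beyond 0.6 in size and an adjusted p under 0.05. SE is the absolute log2 fold change over the square root of F. CPM was computed on library sizes scaled by TMM, with a prior count of 2 added for log2 CPM. Intervals cover counting error only.

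Named were the 10 members, partner genes that were called or of cross-linking, and the 3 genes nearest to *Eln* by root mean square difference. Libraries came from their labels, and 0 sample columns were left aside. A word in the name of the deposited table refers to outliers taken out, and whether a library was removed before deposit is not given in the sources used here. Replicate numbers are shared between genotypes, but deviations from the genotype mean correlated at -0.124 to 0.0141 between same-numbered libraries, so the numbers do not pair them. Alternatives were RLE and upper-quartile scaling, DESeq2, limma-voom with sample weights (limma 3.58.1), other filters, the replicate block, summed near-identical libraries, a chromosome offset, no fold threshold and libraries left out. In simulated data on 14150 genes for HOMO against WT, edgeR recovered 20 of 108 changes of 1 on the log2 scale. It recovered 63 of 92 changes of 2. Of its 90 calls 7 were false, against 72 of 202 for DESeq2. These rates describe the simulated libraries only. Near-identical pairs leave 3 WT and 2 HOMO units in the real data, so the rates are not taken as those of the calls given here. Promoter windows are from RefSeq on GRCm38.p6.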

Additional observations from a re-analysis of the deposited data

Results flagged for a closer look

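Within a genotype, the highest or lowest of the 4 libraries stood apart from the others by Dixon's criterion for 4 values in 5 of 42 groups examined, where chance gives about 1 in 20 groups of 4 independent values. That rate does not hold here, since near-identical libraries leave 3 units in WT and 2 in HOMO. In log2 CPM, *Fbln5* was 11.23 in WT4 against 8.69 to 8.92 in the other WT libraries. *Mfap2* was 3.40 in WT3 against 0.84 to 1.27, and in HOMO it was 1.51 in HOMO1 against 2.09 to 2.17. *Emilin1* was 9.24 in WT3 against 8.61 to 8.70. *Lox* was 12.70 in WT4 against 10.34 to 10.72. WT3 and WT4 accounted for 2 of the 5 each.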

How the results depend on the processing

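Over all genes, 1716 calls became 2913 with DESeq2, 3573 with voom weights, 947 with the replicate block, 0 and 735 with near-identical libraries summed in edgeR and DESeq2, 507 to 2192 leaving out 1 library, 3117 without WT3 and WT4 and 3271 without WT1 and WT2. The 5 called members became 8 with voom weights, 2 with the replicate block, 0 and 2 on summed libraries, and 1 to 6 leaving out 1 library; the 7 called partners became 15, 4, 0 and 4, and 1 to 10, and 13 without either pair of WT libraries. RLE, upper-quartile scaling, other filters, the chromosome offset and no fold threshold kept the 5 members called, while 6 partners were called with upper-quartile scaling, no filter or the offset. Directions of called genes did not reverse under any of 20 alternatives. Among genes not called, with voom weights log2 fold changes reversed to 1.70 (*Eln*), 0.13 (*Fbln5*), 0.83 (*Mfap2*), 1.11 (*Loxl1*) and 0.47 (*Loxl2*); with the replicate block to 0.40 (*Mfap2*) and 0.23 (*Loxl1*); without WT3 and WT4 to 1.51 (*Eln*), 0.14 (*Fbln5*), 0.90 (*Mfap2*), 1.14 (*Loxl1*) and 0.50 (*Loxl2*); and without WT1 and WT2 to 0.41 (*Fbln1*) and -0.13 (*Lox*). Leaving out 1 library gave ranges of -1.18 to 0.12 (*Fbln5*, above 0 without WT4), -0.32 to 1.00 (*Mfap2*, above 0 without WT3 or, at 0.08, HOMO1), -0.85 to 0.84 (*Loxl1*) and -0.52 to 0.32 (*Loxl2*), both above 0 without WT3. Which property of the libraries causes this was not tested. Near-identical libraries leave 3 WT and 2 HOMO units, and reads of *Fbn2* in WT and of *Eln* limit their folds. DESeq2 gave no adjusted p for *Fbln5* and *Loxl1*.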

Other observations

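Several partner genes outside the rule for named genes were picked after their values were seen. *Mfap4*, which encodes a microfibril-associated protein that binds elastin, measured 475 CPM in WT3 and 0.225, 0.472 and 3.14 CPM in WT1, WT2 and WT4, with 0.713 to 4.92 CPM in HOMO (adjusted p = 0.13 in edgeR). *Adamtsl2*, whose protein binds fibrillin, measured 42.5 CPM in WT3 and at most 1.05 CPM in any other library. It did not pass the filter of the main fit, and an exact permutation test of mean CPM gave p = 0.343. In edgeR on summed libraries it had an unadjusted p under 0.05 and was not called. *Mfap4* and *Adamtsl2* were both highest in the library where mouse *Igfbp5* was highest. Among the proteases, *Mmp12*, the macrophage elastase, measured 38.3, 48.1, 363 and 116 CPM in WT1 to WT4 and 2.50, 2.24, 52.9 and 62.1 CPM in HOMO1 to HOMO4. *Ctss*, a cathepsin of antigen-presenting cells, measured 6.98, 8.97, 172 and 88.9 CPM in WT and 0.669, 0.696, 10.6 and 10.7 CPM in HOMO. Both proteases were highest in WT3 and WT4 and lowest in HOMO1 and HOMO2, as were the leukocyte marker sums, whose part in this was not tested, and neither was called (adjusted p = 0.223 and 0.0994 in edgeR). *Itgb5*, an integrin subunit, missed the threshold narrowly without overlap of the genotypes, with a log2 fold change of -0.83 (SE 0.24, adjusted p = 0.0533). The study, with DESeq2, reported it as downregulated.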
